A study of Mus musculus with 36 samples.

Results

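This comparison set mouse astrocyte cultures exposed to corticosterone for 4 h against cultures exposed to vehicle for 4 h, across all genes measured on Illumina bead arrays. Its members were chosen by treatment and time alone: 3 corticosterone arrays and 3 vehicle arrays of the 36 arrays in the series. The corticosterone group received 100 nM corticosterone and the vehicle group received vehicle, and both were primary astrocyte cultures of strain C57B/6 made from pups aged P0 to P2. All groups grew to near confluence in medium with fetal bovine serum before treatment. The sources are called cortical, while the growth protocol speaks of cortex or hippocampus, and nothing says whether pups were pooled. The rest of the series held 500 nM RU486, a blocker of the glucocorticoid receptor, alone or with corticosterone, and each of the 4 treatments was given for 2, 4 or 6 h (12 groups of 3 arrays). The labels do not state that the 3 arrays of a group are separate cultures; the p-values then reflect the spread among arrays, possibly a technical one.

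Corticosterone is the main glucocorticoid of rodents. It enters the cell and binds the glucocorticoid receptor, which is held in the cytoplasm by HSP90 chaperones and immunophilins, moves to the nucleus, and raises transcription at genes that carry its binding sequence. It can also lower transcription, in part by acting on other factors such as AP-1 and NF-kB. In the brain, astrocytes carry the receptor, supply neurons with fuel, and take up and recycle glutamate.

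The values were the authors' normalized intensities, here put on the log2 scale, and a gene was called when its limma p-value, adjusted by the Benjamini-Hochberg method over 18935 genes, was under 0.05. Changes are corticosterone minus vehicle on the log2 scale, and SE is the standard error of the fit. Of the 36 arrays, 34 entered the fit. The others, vehicle 6 h replicate 1 and corticosterone with RU486 6 h replicate 3, correlated with the rest of the series at a median of 0.798 and 0.897, against 0.964 to 0.991 for the fitted arrays. Neither lies in the 4 h comparison, and they would enter it only through the shared estimate of spread. A further difference between arrays touches the comparison directly. Rn18s is 18S ribosomal RNA, here read by the brightest of its probes. It had 8535.3, 12361.4 and 12960.6 on the corticosterone 4 h arrays, against 3112.7, 1268.4 and 867.3 on the vehicle 4 h arrays. It was also low on vehicle 2 h replicate 3 (1603.6), on corticosterone with RU486 2 h replicate 1 (1053.3) and on both arrays left out (95.6 and 102.1). A fit with the Rn18s level as a covariate, added after seeing the data, is therefore given beside the results. Rn18s did not overlap between the groups compared (log2 change 2.88, SE 0.84), so at 4 h its level and the treatment cannot be fully told apart. The covariate can take away part of an effect of treatment or leave part of an array difference. Which of these holds for a call kept or lost with it was not tested.

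**Figure D1:**
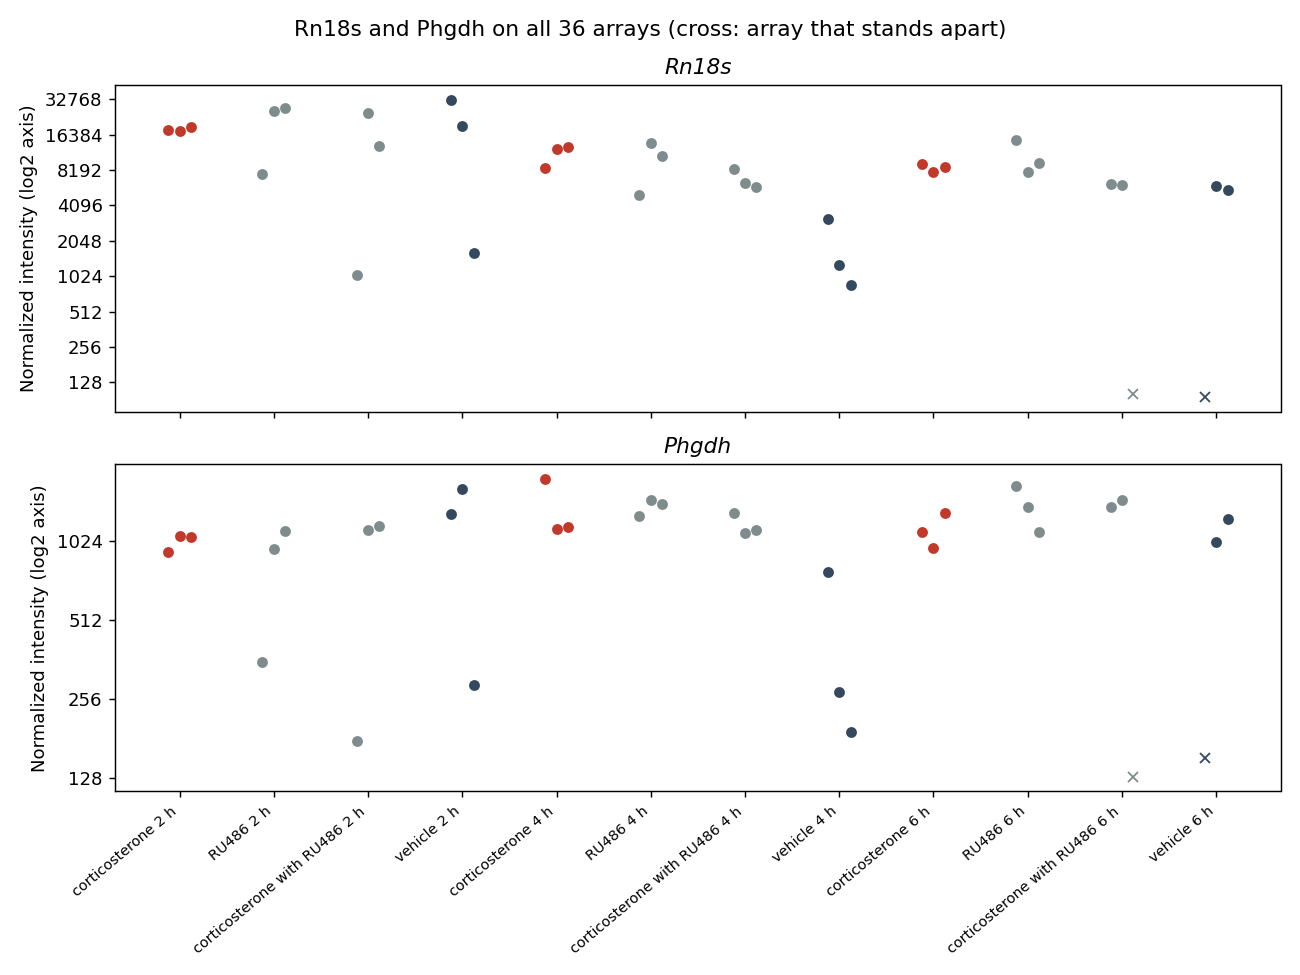
Normalized intensity (log2 axis) of Rn18s and Phgdh on each of the 36 arrays, by group, with corticosterone in red, vehicle in dark blue and the RU486 groups in grey. The 3 vehicle 4 h arrays lie below every other 4 h array for both genes, and crosses mark the arrays that were left out of the fit.

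At 4 h genes were called in both directions, and the changes past 1 on the log2 scale were mostly higher. The fit called 1672 of 18935 genes (8.83%), 611 higher (3.23%) and 1061 lower (5.6%). The median change was 0.58 among the higher genes, -0.51 among the lower genes and -0.01 over all genes tested. By more than 1 on the log2 scale, 78 called genes were higher and 27 were lower. The 3 corticosterone and 3 vehicle arrays did not overlap for 6446 genes (34%), and this was so for 1660 of the called genes (8.77% of all).

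The count of calls depended on the arrays. With all 36 arrays it was 157 (0.829%), 86 higher (0.454%) and 71 lower (0.375%), and all 157 were among the 1672. With the Rn18s covariate it was 457 (2.41%), 243 higher (1.28%) and 214 lower (1.13%), of which 364 (1.92%) were shared with the 1672: 205 higher (1.08%) and 159 lower (0.84%). The share of calls that were higher was thus 36.5% in the fit of 34 arrays, 54.8% with all arrays and 53.2% with the covariate. Leaving out corticosterone replicate 1 gave 671 calls, leaving out vehicle replicate 2 gave 758 and leaving out vehicle replicate 3 gave 768. In all, 491 genes, 201 higher and 290 lower, were called in each of the 6 fits that left out 1 array of the comparison.

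**Figure D2:**
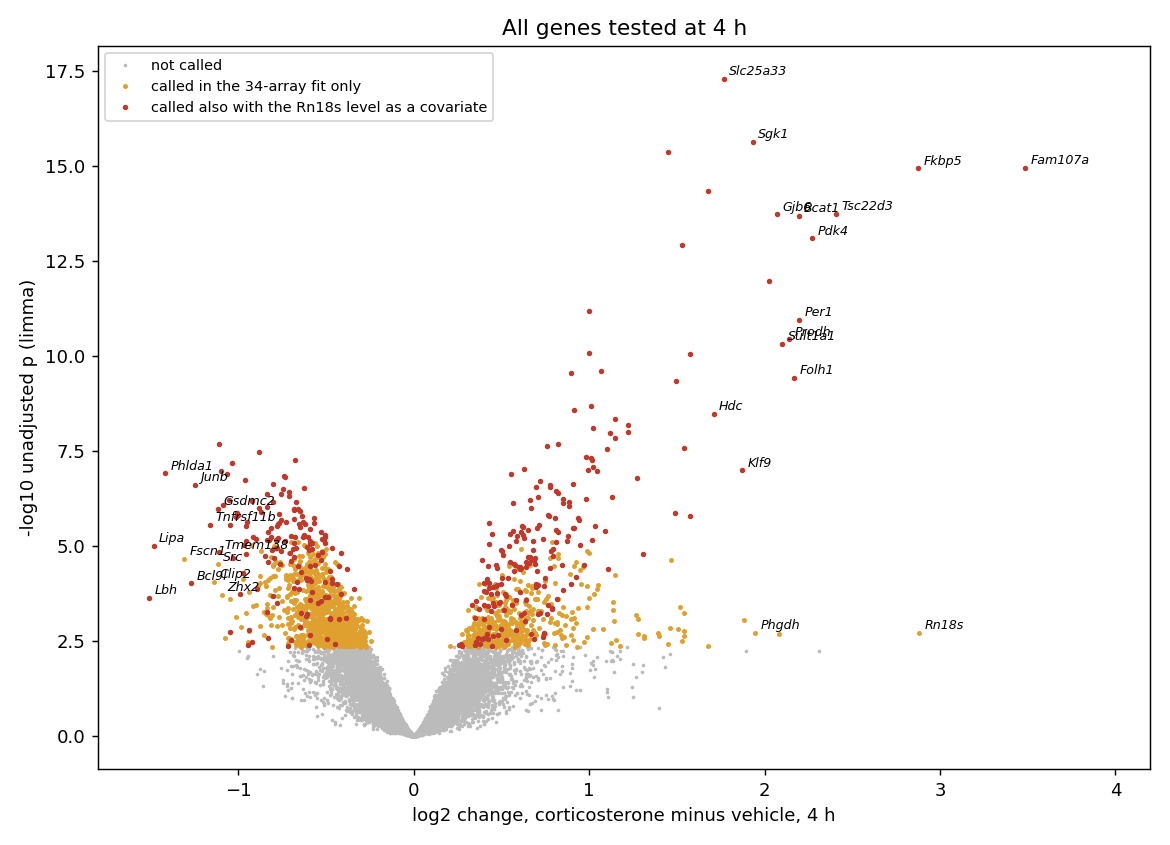
Each point is 1 of the genes tested, with the log2 change of corticosterone minus vehicle at 4 h on the x axis and the negative log10 of the unadjusted limma p on the y axis. Red points were called also with the Rn18s covariate (364 genes) and orange points in the fit of 34 arrays only; Rn18s and Phgdh combine large changes with low significance.

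The 16 highest and 12 lowest called genes without overlap between the groups were examined one by one. Promoter windows from RefSeq (GRCm38.p6, 250 bases before to 50 after a gene's start) were available for 15 of the 16 highest and 7 of the 12 lowest genes. They were searched for the core of the glucocorticoid receptor's binding sequence, ACANNNTGT, and for a longer form that adds a G before it and a C after it, each set off by 1 free base. Both forms are palindromes, so 1 search covers both strands. The longer form lay in a window of Fam107a, Folh1 and Sgk1, which is 3 of 15 genes, while 0.537% of the 27025 genes in the table held it in any window. Of all 32851 windows, 0.475% held it. Fam107a has 3 windows and Sgk1 has 6, so each had more chances of a match than a gene with 1 window. For the core the count was 4 of 15, with Hdc added, against 7.9% of all genes. None of the 7 lowest genes in the table held either form. The AP-1 sequence TGANTCA, also a palindrome, was in a window of Bcat1 and Klf9 (2 of 15) and of 0 of 7 lowest genes, against 8.97% of all genes. The 3 windows that hold the longer form are shown because these genes are among the most strongly raised, with the match in capitals:
Fam107a: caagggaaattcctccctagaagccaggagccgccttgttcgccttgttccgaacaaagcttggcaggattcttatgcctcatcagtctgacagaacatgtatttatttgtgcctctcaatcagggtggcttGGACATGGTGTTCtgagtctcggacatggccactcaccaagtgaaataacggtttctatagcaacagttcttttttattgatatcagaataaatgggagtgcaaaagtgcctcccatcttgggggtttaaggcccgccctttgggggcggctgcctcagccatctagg
Folh1: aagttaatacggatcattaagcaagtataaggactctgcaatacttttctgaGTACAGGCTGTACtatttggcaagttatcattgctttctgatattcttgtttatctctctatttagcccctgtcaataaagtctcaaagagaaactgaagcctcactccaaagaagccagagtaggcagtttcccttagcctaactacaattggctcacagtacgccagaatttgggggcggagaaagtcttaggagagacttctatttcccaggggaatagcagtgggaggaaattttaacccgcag
Sgk1: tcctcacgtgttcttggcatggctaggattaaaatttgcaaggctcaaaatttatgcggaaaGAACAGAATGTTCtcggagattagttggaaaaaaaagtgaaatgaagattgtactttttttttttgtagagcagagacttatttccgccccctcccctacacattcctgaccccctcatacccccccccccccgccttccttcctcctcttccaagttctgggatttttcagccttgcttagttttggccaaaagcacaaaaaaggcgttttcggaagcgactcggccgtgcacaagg
The Fam107a window is chr14:8309730-8310029 on the minus strand, with the match centred 112 bases before the start. Of the gene's 3 windows 2 hold it, but the other of these, chr14:8309728-8310027, overlaps almost wholly and holds the same site. The remaining window, chr14:8317558-8317857, holds none. The Folh1 window is chr7:86775815-86776114 on the minus strand, with the match 192 bases before the start. The Sgk1 window is chr10:21993640-21993939 on the plus strand, 1 of 6 windows of that gene, with the match 182 bases before the start. The arrays do not tell which start was used, and a match of letters is not a measured binding site.

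Of the genes of the receptor complex, 1 was among the 16 highest. Fkbp5, an immunophilin that binds the receptor complex and lowers its affinity for hormone, had 1301.1, 1450.1 and 1601.7 on the corticosterone arrays, against 193.1, 189.7 and 208.1 on the vehicle arrays. The groups lay far apart, with a mean log2 intensity of 10.50 ± 0.15 under corticosterone and 7.62 ± 0.07 under vehicle (SD, n = 3 each), a change of 2.88 (SE 0.17, limma adjusted p = 4.43e-12). In this RNA of whole cultures, more cells that express a gene and more RNA per cell cannot be told apart. The receptor gene Nr3c1 was dim, at 133.6, 151.1 and 135.4 under corticosterone and 143.6, 185.3 and 163.7 under vehicle, with overlapping groups (-0.22, SE 0.11, adjusted p = 0.232). Of 19 measured genes of steroid receptors, chaperones and co-regulators, 2 were called higher and 3 lower, with a median change of -0.14. Hsd11b2, which inactivates corticosterone in kidney, was the other higher gene (0.87, SE 0.23), and its call was lost with the Rn18s covariate (adjusted p = 0.0761). The co-repressor Ncor1 had 1014.8, 1405.3 and 1305.1 under corticosterone, against 2492.8, 2630.9 and 2407.5 under vehicle. That fall of 1.03 (SE 0.20) was called also with the covariate (adjusted p = 0.0168) but not with all 36 arrays (adjusted p = 0.307). The HSP90 gene Hsp90ab1 (-0.51) and the HSP70 gene Hspa8 (-0.28) were the others called lower, and neither was called with the covariate.

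Regulators of transcription formed a second set. Tsc22d3 (GILZ), a leucine zipper protein that restrains NF-kB and AP-1, had 6108.7, 7931.3 and 7501.2 under corticosterone, against 1368.1, 1261.7 and 1413.1 under vehicle. Its groups did not overlap, the change was 2.41 (SE 0.16, adjusted p = 4.43e-11), and a second probe was called higher too (2.97). Klf9, a Krüppel-like zinc finger factor, had 4251.1, 6867.0 and 7207.2 under corticosterone, against 1727.5, 1662.4 and 1487.0 under vehicle. Replicate 1 was the lowest of its corticosterone arrays, and it still exceeded every vehicle array (change 1.87, SE 0.26). Among the repressors, the zinc finger protein Zbtb16 (PLZF) had 175.3, 334.6 and 244.2 under corticosterone, against 108.4, 101.0 and 102.9 under vehicle, a change of 1.22 (SE 0.15) from near the array median. Bcl6, a repressor of the same family, rose by 1.12 (SE 0.14). Apart from these repressors, Csrnp1 rose by 1.13 (SE 0.17). The fat-cell and liver factor Klf15 rose by 0.65 (SE 0.11). These 4 and Klf9 kept their calls with all 36 arrays, with the Rn18s covariate and in each fit without 1 array. The C/EBP factor Cebpd rose by 0.45 (SE 0.11) and was called in neither of the first 2 of these settings.

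The clock gene Per1, a repressor of the CLOCK and BMAL1 pair, had 2473.8, 2649.6 and 2636.4 under corticosterone, against 753.8, 546.1 and 435.6 under vehicle. The vehicle arrays were spread more widely than the corticosterone arrays and stayed below them, and the change was 2.20 (SE 0.20, adjusted p = 1.5e-08). Per1 was called in 13 of 14 other settings; the exception was the fit of all 36 arrays, with an adjusted p of 0.0513. Its relative Per2 had 1463.4, 1935.6 and 1943.4 under corticosterone, against 955.9, 999.4 and 1040.1 under vehicle, a change of 0.82 (SE 0.11). Of 16 measured clock genes, 4 were called higher and 1 lower, with a median change of 0.06. Ciart, also a repressor of the clock, rose by 0.55 (SE 0.11), and Tef, an output factor, by 0.72 (SE 0.20). Of the 6 fits without 1 array, Ciart was called in 6 and Tef in 1. The 1 lower gene was Arntl, which encodes BMAL1, with 756.6, 689.9 and 814.6 under corticosterone and 1189.0, 1206.2 and 1224.4 under vehicle (-0.68, SE 0.12). With the covariate 3 of the higher calls and that of Arntl were kept, and with all 36 arrays 0 were. The output factor Dbp (-0.04, SE 0.14) and the nuclear receptor Nr1d1 (-0.15, SE 0.19) were not called.

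Enzymes and carriers of fuel and amino acid metabolism are described next. Pdk4, the kinase that switches off pyruvate dehydrogenase, had 2738.8, 3526.2 and 3632.3 under corticosterone, against 639.2, 706.8 and 689.8 under vehicle (change 2.27, SE 0.16, adjusted p = 1.53e-10). A second, dim Pdk4 probe read alike in both groups (0.01). Of the 22 measured fuel genes Pdk4 was the only 1 called higher, while lactate dehydrogenase Ldha (-0.34) and the glycogen targeting subunit Ppp1r3c (-0.39) were called lower, neither of them with the covariate. Slc25a33, a mitochondrial carrier of pyrimidine nucleotides, had 2100.1, 2281.8 and 2360.9 under corticosterone, against 644.5, 643.8 and 688.8 under vehicle. Its arrays were tight within each group, and its change of 1.77 (SE 0.09) had the lowest adjusted p of the named genes (9.85e-14), which was 0.0139 with all 36 arrays.

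Of 29 measured genes of amino acid handling, 6 were called higher and 1 lower, with a median change of 0.05. Bcat1, which transaminates branched-chain amino acids in the cytosol, had 817.3, 1024.6 and 1048.8 under corticosterone, against 202.2, 202.2 and 223.8 under vehicle (2.19, SE 0.15). Prodh, which begins the breakdown of proline in mitochondria, had 709.9, 682.4 and 755.7 under corticosterone, against 168.3, 167.4 and 151.6 under vehicle (2.14, SE 0.20). Folh1, a glutamate carboxypeptidase that cleaves N-acetylaspartylglutamate, had 456.5, 673.7 and 643.8 under corticosterone, against 114.0, 132.4 and 143.9 under vehicle (2.17, SE 0.23). Of these 3 enzymes, Folh1 was near the array median of 110.5 to 111.2 in vehicle cultures, and none had overlapping groups. Glutamine synthetase Glul, the enzyme by which astrocytes turn glutamate into glutamine, had 331.7, 271.1 and 304.5 under corticosterone, against 158.2, 166.3 and 203.3 under vehicle (0.79, SE 0.15). The alanine transaminase Gpt2 rose by 0.41 (SE 0.12) and Aldh18a1, an enzyme of proline synthesis, fell by 0.56 (SE 0.17), and both lost the call with the covariate (adjusted p = 0.0631 and 0.366). Those 4 enzymes, Bcat1, Prodh, Folh1 and Glul, kept theirs.

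The sixth higher gene, Phgdh, was lowest on the same 4 h arrays as Rn18s, those of vehicle. Within the corticosterone 4 h arrays the order was not shared, as replicate 1 had the highest Phgdh and the lowest Rn18s. Phgdh, which begins serine synthesis, had 1765.1, 1135.9 and 1160.2 under corticosterone, against 782.0, 272.8 and 191.3 under vehicle, a change of 1.94 (SE 0.57, adjusted p = 0.0302). With the covariate its change was 0.18 (adjusted p = 0.809), and with all 36 arrays the adjusted p was 0.383. Rn18s itself had a change of 2.88 (SE 0.84, adjusted p = 0.0297, or 0.505 with all arrays), and its 2 other probes were higher too. Both genes were called in 1 of the 6 fits without an array, the one without vehicle replicate 1. Fgfr3, a growth factor receptor of astrocytes, showed the same ordering of vehicle arrays, with 442.7, 512.7 and 513.6 under corticosterone, against 267.3, 155.8 and 117.0 under vehicle. Its change of 1.53 (SE 0.47) was -0.03 with the covariate.

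Enzymes acting on small molecules followed. The sulfotransferase Sult1a1, which conjugates phenols and catecholamines, had 1913.2, 1998.8 and 1975.0 under corticosterone, against 426.0, 453.9 and 494.2 under vehicle (2.10, SE 0.20). Hdc, which makes histamine from histidine, had 2658.0, 2143.3 and 2315.6 under corticosterone, against 583.0, 796.8 and 812.1 under vehicle (1.71, SE 0.20). For Hdc a second probe was called higher as well. Neither gene had overlapping groups, and both kept the call in every other setting tried.

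Among genes of signalling, junctions and the cytoskeleton, Fam107a changed most of all named genes. Fam107a, an actin-associated protein of stress responses, had 2982.7, 4658.6 and 4819.8 under corticosterone, against 334.8, 366.0 and 388.8 under vehicle. Replicate 1 was the lowest corticosterone array, several times brighter than any vehicle array, and the change was 3.49 (SE 0.21, adjusted p = 4.43e-12). Sgk1, a kinase that keeps ion channels and carriers at the membrane, had 7942.4, 10352.0 and 10091.7 under corticosterone, against 2229.5, 2571.8 and 2597.2 under vehicle (1.93, SE 0.11). Gjb6, which encodes the astrocyte gap junction protein connexin 30, had 428.0, 433.8 and 459.8 under corticosterone, against 97.8, 113.8 and 103.7 under vehicle. Its vehicle arrays lay near the array median of 110.5 to 111.2, where unsubtracted background makes a fold an understatement, and the change was 2.07 (SE 0.14). The other main astrocyte connexin, Gja1, had 11677.2, 15578.9 and 14726.2 under corticosterone, against 12817.8, 14620.1 and 14592.1 under vehicle, with overlapping groups (-0.01, SE 0.15).

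**Figure D3:**
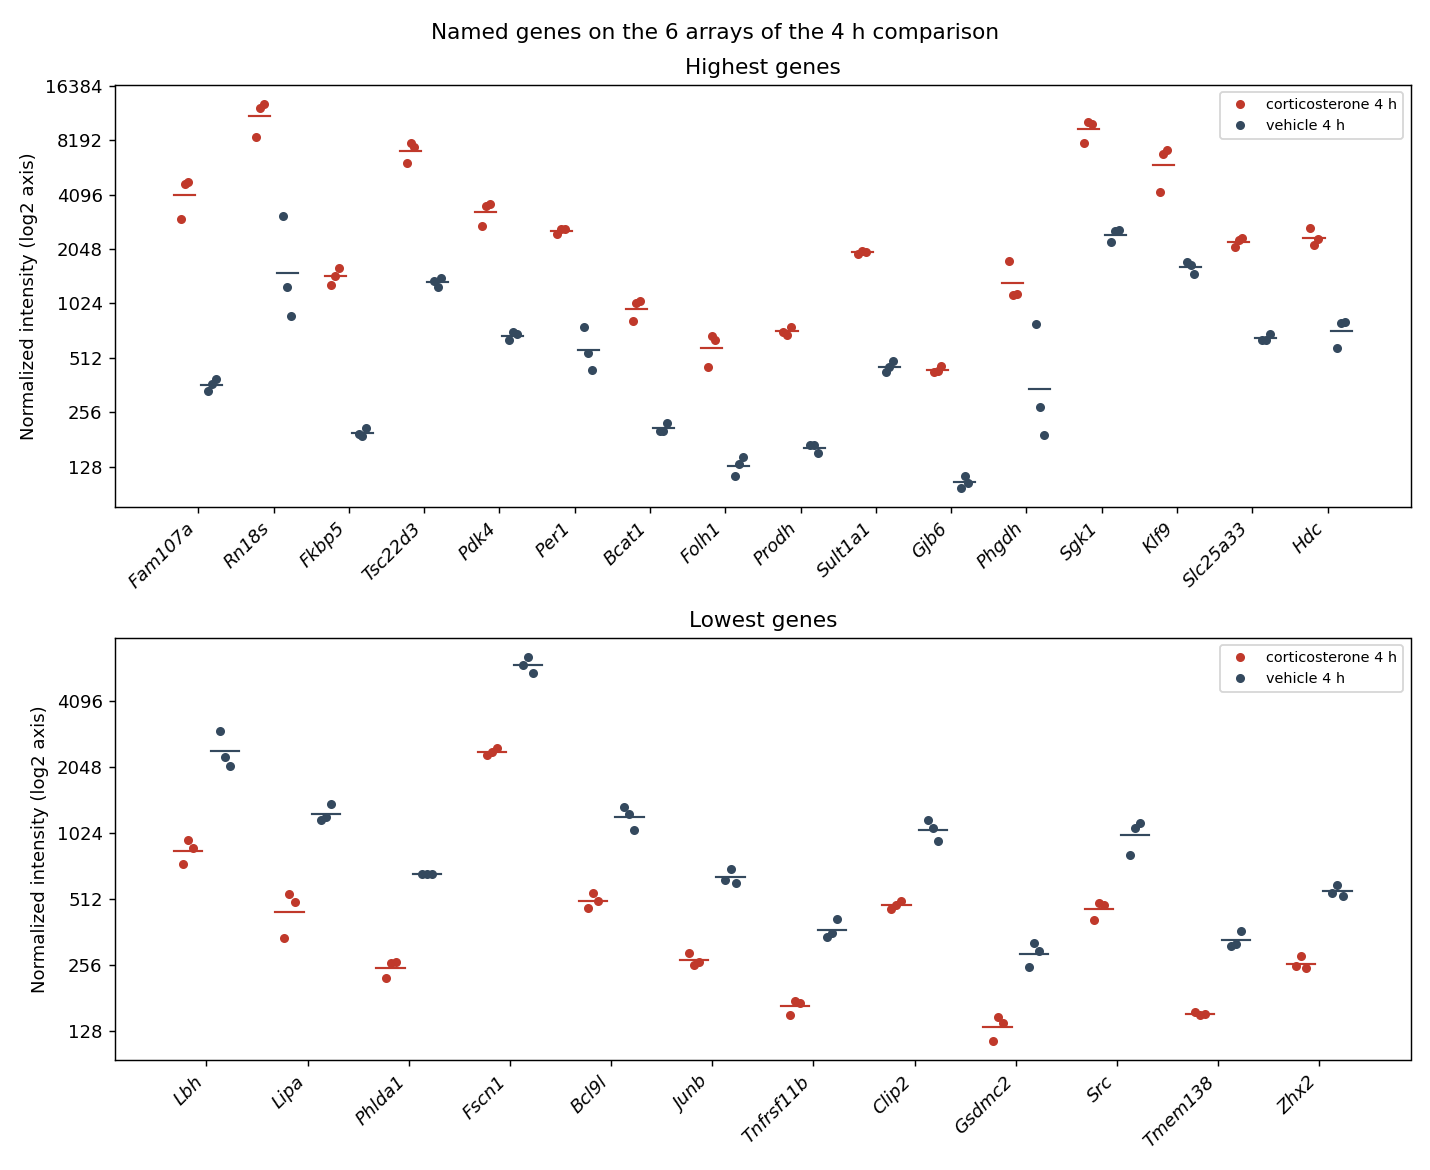
Normalized intensity (log2 axis) of the 16 highest and 12 lowest genes on the 3 corticosterone 4 h arrays (red, left) and the 3 vehicle 4 h arrays (dark blue, right), with lines at the mean of log2 values. No gene has overlapping groups, a condition of its choice, and the vehicle arrays of Rn18s and Phgdh spread most widely.

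The lowest genes were moderate in size and less stable than the highest. Lbh, a transcription cofactor, had 741.9, 954.6 and 873.5 under corticosterone, against 3004.6, 2272.0 and 2076.8 under vehicle (-1.51, SE 0.36). Lipa, the lysosomal lipase that frees cholesterol from its esters, had 339.4, 541.9 and 496.5 under corticosterone, against 1177.3, 1213.6 and 1393.6 under vehicle (-1.48, SE 0.27). For both, a second probe was called lower. Phlda1, a pleckstrin homology-like protein that restrains receptor tyrosine kinase signalling, had 225.0, 261.8 and 264.5 under corticosterone, against 665.0, 665.8 and 669.5 under vehicle. The vehicle arrays of Phlda1 were almost equal, and its change was -1.42 (SE 0.20, adjusted p = 4.71e-05). Lipa and Phlda1 kept their calls with all 36 arrays (adjusted p = 0.0317 and 0.0023), while the other 10 lowest genes lost theirs. All 12 kept it in each of the 6 fits without 1 array.

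Junb, an AP-1 subunit, had 292.4, 257.8 and 265.6 under corticosterone, against 627.6, 701.0 and 610.2 under vehicle (-1.25, SE 0.18). Of 20 measured immediate-early genes it was 1 of 2 called lower, with the endothelial factor Klf2 (-0.68), and Egr2 was called higher (0.38, SE 0.12). The call of Egr2 was lost in each of the 6 fits without 1 array. Fos (0.01, SE 0.13) and Egr1 (-0.15, SE 0.09) had overlapping groups. Fscn1, which bundles actin, had 2340.3, 2404.4 and 2502.0 under corticosterone, against 5967.9, 6490.3 and 5505.8 under vehicle (-1.31, SE 0.25), and was not called with the covariate (adjusted p = 0.0880). The tyrosine kinase Src had 412.2, 493.7 and 484.1 under corticosterone, against 812.7, 1077.7 and 1143.5 under vehicle (-1.12, SE 0.22). The microtubule-binding Clip2 had 463.4, 482.2 and 504.4 under corticosterone, against 1181.0, 1082.9 and 944.3 under vehicle (-1.14, SE 0.25). Like Fscn1, these 2 genes and the homeobox repressor Zhx2 (-1.09, SE 0.25) lost their calls with the covariate, at adjusted p = 0.0983, 0.0773 and 0.219. Src, Clip2, Junb, Bcl9l and Tmem138 had other, dimmer probes, and none of those was called.

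Bcl9l, a co-activator of beta-catenin, had 465.3, 544.6 and 504.2 under corticosterone, against 1349.7, 1249.8 and 1059.9 under vehicle (-1.27, SE 0.28). Tnfrsf11b (osteoprotegerin), a soluble receptor that traps RANKL, had 151.5, 176.5 and 172.6 under corticosterone, against 343.3, 361.1 and 414.3 under vehicle (-1.16, SE 0.20). The gasdermin gene Gsdmc2 had 115.8, 148.2 and 139.0 under corticosterone, against 252.4, 324.2 and 297.3 under vehicle (-1.12, SE 0.18). The membrane protein gene Tmem138 had 156.4, 152.7 and 153.8 under corticosterone, against 313.5, 321.0 and 367.0 under vehicle (-1.11, SE 0.21). In these last 3 genes the corticosterone arrays approached the array median, so the falls are understated. All 4 were called with the covariate.

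Of 30 measured genes known to be induced by glucocorticoids, 24 were called higher and 0 lower, with a median change of 0.89. Over all genes tested 3.23% were called higher and 5.6% lower, with a median of -0.01, and these shares stand beside the count of every list. The list was drawn up with results of this comparison known and holds several of its highest genes, such as Fam107a and Sgk1, so its count is a description and no independent evidence. With all 36 arrays and array weights, 25 members were called higher and 2 lower. The count of higher members was 15 with all 36 arrays, 22 with the Rn18s covariate and 22 to 24 with 1 array left out, and 21 were called in all 6 of those fits. Plin4, a lipid droplet coat protein, had 462.8, 511.9 and 523.3 under corticosterone, against 197.5, 162.1 and 157.8 under vehicle (1.54, SE 0.20). Mertk, a receptor for the clearance of debris, had 655.9, 857.7 and 930.0 under corticosterone, against 350.6, 386.1 and 391.9 under vehicle (1.10, SE 0.14). Errfi1, an inhibitor of the EGF receptor, had 1204.6, 1680.3 and 1568.0 under corticosterone, against 722.3, 725.6 and 742.5 under vehicle (1.01, SE 0.14). Each of these 3 genes was called with all 36 arrays and with the covariate. Lcn2 (0.93), Gadd45g (0.71), Arrdc3 (0.63) and Arrdc2 (0.62) were also called higher. Cdkn1a (0.53) was too, but not with the covariate (adjusted p = 0.238).

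The members of that list that were not called included genes often used as markers of the hormone. The phosphatase gene Dusp1 had 9226.4, 11776.5 and 11058.3 under corticosterone and 9913.9, 8726.2 and 8556.3 under vehicle, so the groups overlapped (0.23, SE 0.14). The metallothionein gene Mt2 had 3799.6, 1956.9 and 1873.9 under corticosterone, against 1105.0, 1611.7 and 1327.5 under vehicle (0.85, SE 0.28, adjusted p = 0.0588). Mt1, near the top of the intensity range, had 32491.8, 34010.0 and 34462.4 under corticosterone and 39706.9, 39706.9 and 34948.6 under vehicle (-0.18, SE 0.09, adjusted p = 0.217). Angptl4 (-0.26), Rhob (-0.20) and Hif3a (-0.03) were not called either.

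**Figure D4:**
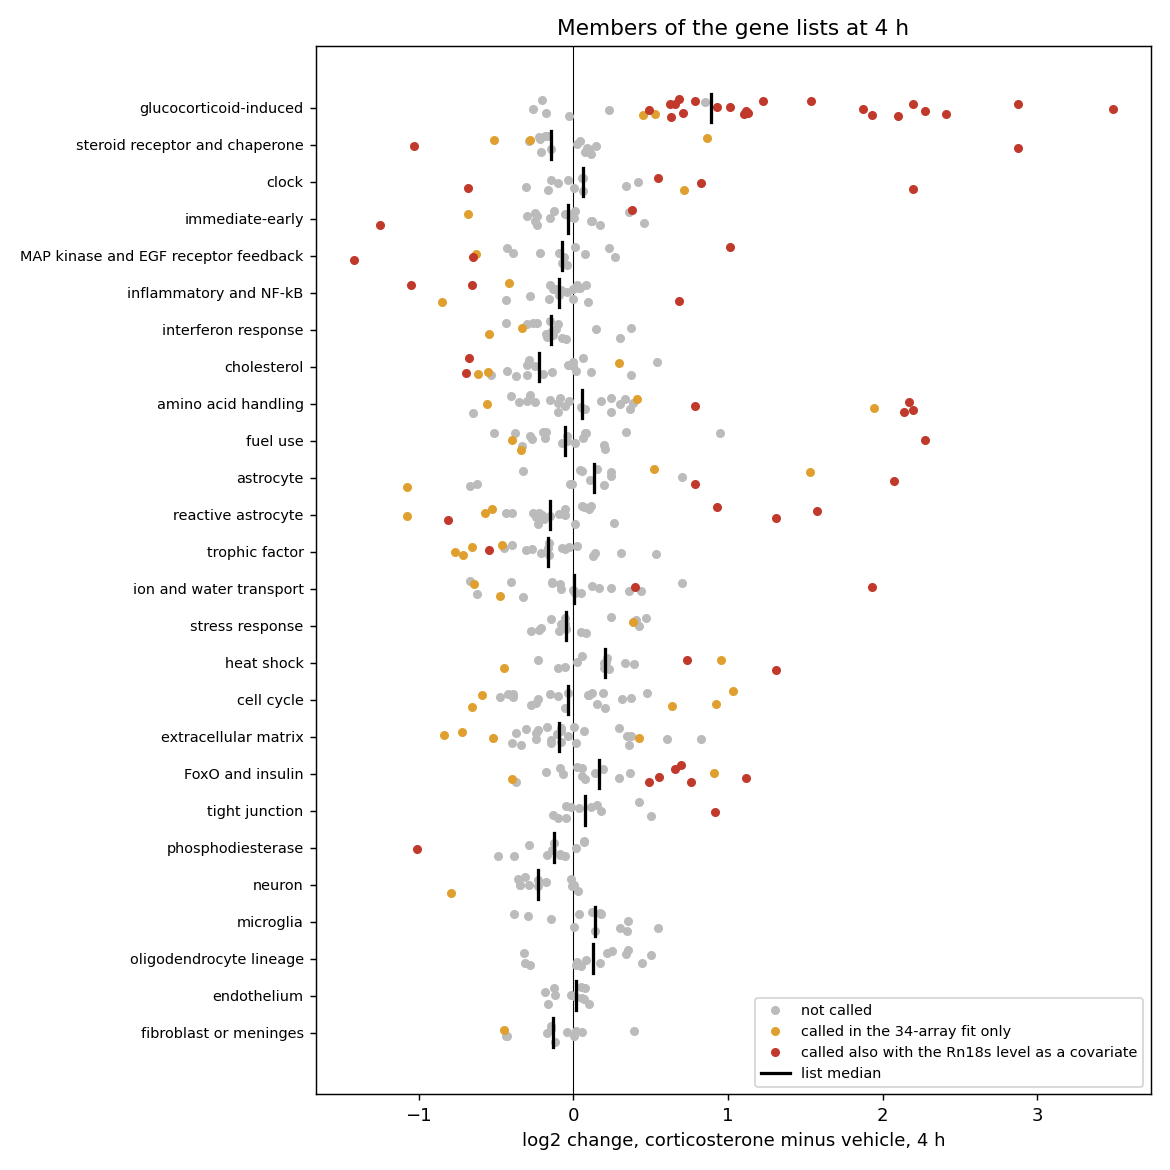
Log2 change at 4 h (corticosterone minus vehicle) of each measured member of 26 gene lists, 1 list per row, with a bar at the list's median. Red members were called also with the Rn18s covariate, orange members in the fit of 34 arrays only and grey members were not called; 24 of 30 members of the glucocorticoid-induced list were called, all of them higher.

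Genes of FoxO and insulin signalling had 7 of 20 measured members higher and 1 lower (median 0.17), where all genes tested had 3.23% higher and 5.6% lower. Of the higher calls, 6 were kept with the covariate and 2 with all 36 arrays. Foxo3, a transcription factor that insulin signalling holds out of the nucleus, had 297.2, 302.4 and 312.5 under corticosterone, against 221.9, 197.2 and 202.9 under vehicle (0.55, SE 0.08). The stress-induced mTOR inhibitor Ddit4 had 1867.3, 2400.4 and 2466.8 under corticosterone, against 1622.6, 1489.6 and 1646.9 under vehicle (0.49, SE 0.12). Sesn1, which also restrains mTOR, rose by 0.70 (SE 0.15) and Txnip, which limits glucose uptake, by 0.76 (SE 0.20). Bcl6 and Klf15, described above, belong to this list too. The phosphoinositide kinase subunit Pik3r1 (0.91, SE 0.26) and the ubiquitin ligase Fbxo32 (-0.40, SE 0.11) lost their calls with the covariate, at adjusted p = 0.440 and 0.509.

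Of 21 measured inflammatory and NF-kB genes, 1 was higher and 4 were lower, with a median change of -0.09; with the covariate 1 and 2 of these were kept, and with all 36 arrays 0. Nfkbia, the inhibitor that holds NF-kB in the cytoplasm, had 1775.7, 1507.6 and 1557.3 under corticosterone, against 1083.6, 1003.1 and 926.8 under vehicle (0.68, SE 0.13). The chemokine gene Cxcl10 had 248.7, 192.6 and 205.7 under corticosterone, against 384.1, 479.8 and 474.4 under vehicle (-1.05, SE 0.16). The NF-kB subunit gene Relb had 144.0, 177.6 and 174.5 under corticosterone, against 271.1, 245.6 and 262.1 under vehicle (-0.66, SE 0.11). These 3 were the members kept with the covariate. The adhesion molecule genes Vcam1 (-0.85) and Icam1 (-0.42) lost the call there (adjusted p = 0.186 and 0.359). The chemokine gene Ccl2 was dim in both groups, with overlap (-0.28, SE 0.12). Of 18 measured interferon response genes, Gbp2 (-0.55) and Mx2 (-0.33) were lower and 0 higher, and neither call was kept with the covariate or with all 36 arrays.

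Trophic factor genes had 5 of 21 measured members lower and 0 higher, with a median change of -0.17. The neurotrophin gene Bdnf had 226.8, 284.1 and 245.7 under corticosterone, against 405.9, 349.2 and 346.0 under vehicle (-0.54, SE 0.10, adjusted p = 0.00143). It was the 1 member called lower in both the fit of 34 arrays and that with the covariate. Pdgfb (-0.71), Hbegf (-0.65) and Inhba (-0.46) were called lower in the fit of 34 arrays. Of the 6 fits without 1 array, Pdgfb and Hbegf were called in 6 and Inhba in 1. Among feedback genes of MAP kinase and the EGF receptor, 1 of 15 was higher (Errfi1) and 3 were lower: Phlda1, the receptor inhibitor Lrig1 (-0.65, SE 0.11) and the ETS factor Etv5 (-0.63, SE 0.15). Etv5 lost its call with the covariate (adjusted p = 0.122), while Dusp6 (-0.07, SE 0.16) was not called.

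Cholesterol genes had 4 of 22 measured members lower and 1 higher, with a median change of -0.23. Sqle, squalene epoxidase, had 4161.3, 5238.0 and 5188.6 under corticosterone, against 7633.5, 7797.0 and 7696.5 under vehicle (-0.67, SE 0.13). Cyp51, the sterol demethylase, had 1553.2, 1631.5 and 1669.1 under corticosterone, against 2637.4, 2620.4 and 2607.3 under vehicle (-0.70, SE 0.12). Both were called with the covariate and in all 6 fits without 1 array. The reductase gene Dhcr7 (-0.62) and the higher gene Hsd17b7 (0.29) were not called with the covariate, and with all 36 arrays 0 members were called.

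The lists given next held 1 to 5 calls each. Pde1b, a calcium-stimulated phosphodiesterase, had 673.5, 749.6 and 795.7 under corticosterone, against 1569.0, 1445.0 and 1457.8 under vehicle (-1.01, SE 0.17), the 1 call among 13 phosphodiesterase genes. The claudin gene Cldn2 had 1085.5, 1375.1 and 1324.8 under corticosterone, against 627.5, 652.5 and 723.0 under vehicle (0.91, SE 0.11), the 1 call among 12 tight junction genes. Both were called with the covariate, Pde1b also with all 36 arrays and Cldn2 not (adjusted p = 0.105). Of 22 ion and water transport genes, Sgk1 and the potassium channel gene Kcnk1 (0.40) were higher, while the sodium channel gene Scnn1a (-0.64) and the kinase gene Wnk1 (-0.47) were lower, these last 2 not with the covariate. Of 16 heat shock genes 3 were higher and 1 lower. The small heat shock protein Hspb1 had 2667.6, 2236.1 and 2427.3 under corticosterone, against 1147.9, 974.8 and 852.0 under vehicle (1.31, SE 0.25). Hspa1b (0.95) and Hsph1 (0.74) were the other higher members and Bag3 (-0.45) the lower one, and Hspa1b and Bag3 lost their calls with the covariate. Without 1 array, Hsph1 was called in 0 of 6 fits, Bag3 in 3 and Hspa1b in 6. Of 25 cell cycle genes, the mitotic kinases Plk1 (0.92) and Aurka (0.64) and the inhibitor Cdkn1c (1.03) were higher while Mki67 (-0.59) and Mcm2 (-0.65) were lower. None of those 5 was called with the covariate. That was so too for the 1 higher and 3 lower of 28 extracellular matrix genes and for Chac1 (0.38), the 1 call among 16 stress response genes.

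Markers were read to check the cells. Among astrocyte markers the glutamate transporter gene Slc1a3 was bright, at 27057.2, 31638.1 and 32266.7 under corticosterone and 27954.8, 29141.0 and 30335.3 under vehicle. Others were far dimmer, as with Gjb6, near the array median under vehicle, and with Fgfr3 and Glul, given above. Of 18 measured astrocyte markers 4 were higher (Gjb6, Fgfr3, Glul and Ndrg2, with Fgfr3 and Ndrg2 not called with the covariate) and 1 lower, with a median change of 0.13 and a summed intensity of 81880.7 to 106132 under corticosterone and 103242 to 106865 under vehicle. The lower one was Gfap, the intermediate filament of astrocytes, with 4340.7, 6246.7 and 6396.2 under corticosterone, against 13017.6, 11601.2 and 10802.3 under vehicle (-1.08, SE 0.33, adjusted p = 0.0361). The call of Gfap was lost in each of the 6 fits without 1 array, with all 36 arrays (adjusted p = 0.688) and with the covariate (adjusted p = 0.172). The water channel gene Aqp4 (-0.63, SE 0.38) was not called. Of 25 genes of reactive astrocytes, Sphk1 (1.57), Hspb1 and Lcn2 were higher and kept their calls with the covariate, and Gfap, Ptx3 (-0.81), Osmr (-0.57) and Ggta1 (-0.53) were lower, of which Ptx3 kept its call there.

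Markers of other cells were read as sums. The 13 measured neuron markers summed to 8727.2 to 9913 under corticosterone and 11209.8 to 12312.4 under vehicle, and 1 of them was called, Syn1 (-0.79), which was not called with the covariate. For 13 microglia markers the sums were 8190.5 to 10471.4 under corticosterone and 7055.3 to 7568 under vehicle, with 0 called. P2ry12 was near the array median in both groups, but the sums show that other members were brighter. The 14 oligodendrocyte lineage markers summed to 27295.8 to 32938.7 under corticosterone and 28273.1 to 30364 under vehicle, with 0 called. The 11 endothelial markers summed to 1924.8 to 2045.4 under corticosterone and 1853.7 to 2059.7 under vehicle, with 0 called and Pecam1 near the array median. The 12 fibroblast or meningeal markers summed to 24204.7 to 30553.3 under corticosterone and 30084.7 to 33825.7 under vehicle, with 1 called, Foxc1 (-0.45). The neuron sums were lower and the microglia sums higher under corticosterone, without overlap between the groups. Their part in the results was not tested.

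The 4 h response was set beside those at 2 h and 6 h, which share no array with it. At 2 h, 81 genes were called higher (0.428%) and 47 lower (0.248%), and at 6 h 224 higher (1.18%) and 71 lower (0.375%). Of the 611 higher genes, 68 had a higher call at 2 h too, which is 11.1% of the 4 h genes and 84.0% of the 2 h genes. With 6 h the overlap was 170, 27.8% of the 4 h genes and 75.9% of the 6 h genes. Of the 1061 lower genes, 27 were lower at 2 h (2.54% of the genes lower at 4 h and 57.4% of those lower at 2 h) and 53 at 6 h (74.6% of the genes lower at 6 h and 5.0% of those lower at 4 h). No gene was called in opposite directions. In all, 55 genes were higher and 5 lower at all 3 times. Among genes higher at 4 h, 91.0% were above 0 at 2 h and 94.6% at 6 h, while 51.2% and 48.0% of all genes tested were. Among the lower genes, 91.1% were below 0 at 2 h and 93.4% at 6 h, while 48.8% and 52.0% of all genes were. The calls at the 3 times share 1 estimate of spread. Rn18s was also above 0 at the other times, at 0.86 (SE 0.84) at 2 h and 0.57 (SE 0.94) at 6 h. These shares were not taken with the Rn18s covariate, and its part in them was not tested.

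The difference between the effects was tested by limma as well. Between 4 h and 2 h, 5 genes were called (0.0264%), all with a higher change at 4 h. Prodh changed by 2.14 at 4 h and 0.54 at 2 h (difference 1.60, SE 0.29, adjusted p = 0.0232). Mapk4, an atypical MAP kinase, had 321.7, 419.1 and 482.3 under corticosterone at 4 h, against 141.5, 141.5 and 135.3 under vehicle, and its changes were 1.53 at 4 h and 0.45 at 2 h (difference 1.08, SE 0.16). Slc25a33 changed by 1.77 at 4 h and 0.98 at 2 h (difference 0.79, SE 0.12). The gene listed as Tilz3c changed by 1.45 at 4 h and 0.45 at 2 h (difference 0.996, SE 0.12). That name was kept from the file, and whether it is a gene separate from Tsc22d3 was not checked. For the probe that stood for Tsc22d3 the difference was 0.60 (SE 0.23, limma adjusted p = 0.593). The fifth gene, the clone C030009J22Rik, is named after its values were seen; its changes were 2.03 at 4 h and 0.57 at 2 h (difference 1.46, SE 0.23). With all 36 arrays 1 gene was called, Tilz3c. Between 6 h and 4 h limma called 0 genes (0%), with 744 at an unadjusted p under 0.05, and 0 with all 36 arrays; with array weights the count was 1040. Sgk1 read 1.81, 1.93 and 2.05 at 2, 4 and 6 h, Fkbp5 1.65, 2.88 and 3.43, and Fam107a 2.23, 3.49 and 4.17. Among the lowest genes Tnfrsf11b read -0.01, -1.16 and -1.22, Phlda1 -1.01, -1.42 and -1.14, and Bcl9l -1.24, -1.27 and -0.45.

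**Figure D5:**
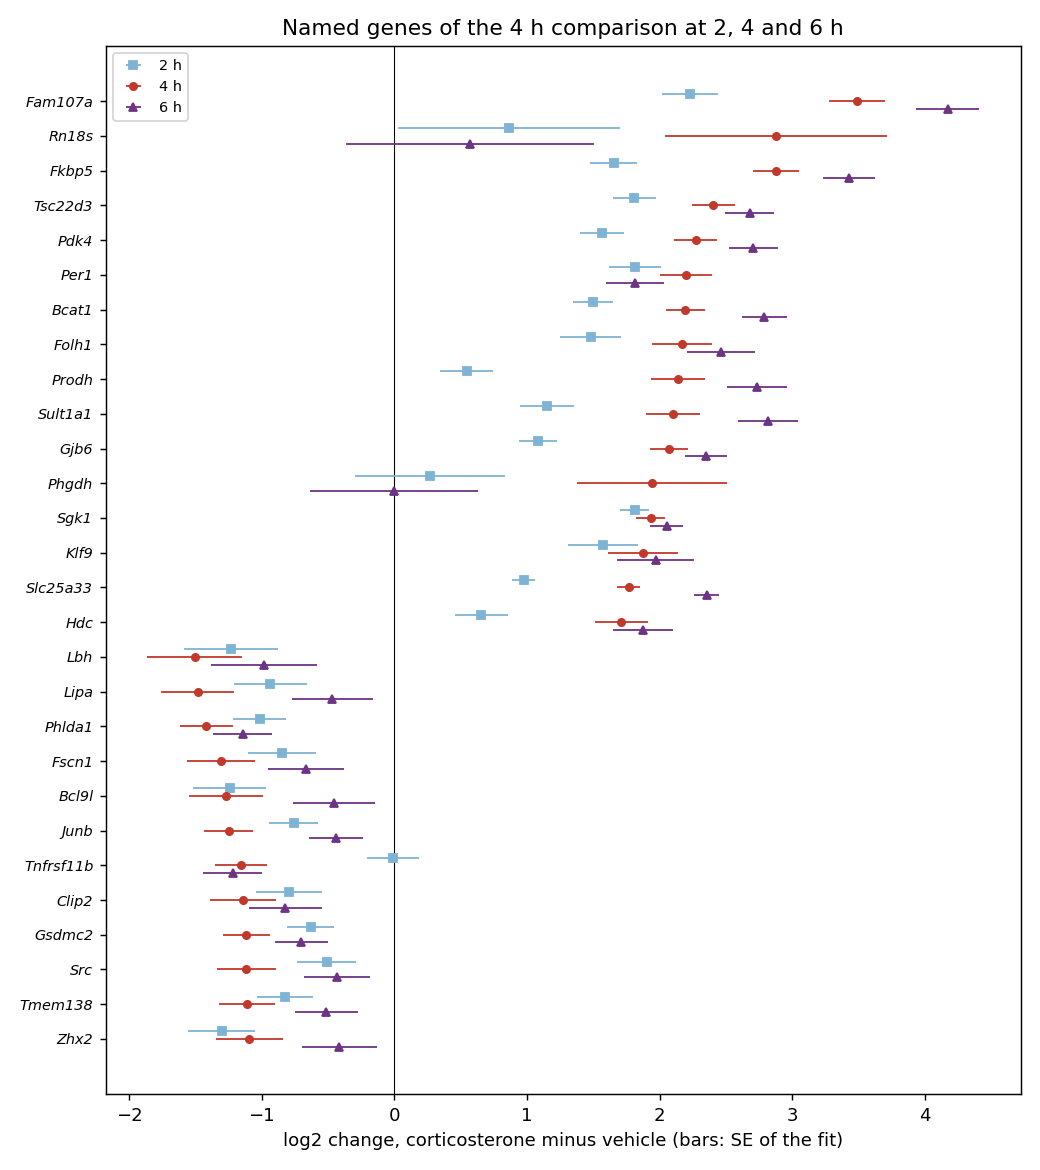
Log2 change of corticosterone minus vehicle at 2 h (squares), 4 h (circles) and 6 h (triangles) for the 28 named genes, with bars for the SE of the fit. Fam107a reads 2.23, 3.49 and 4.17 in that order, and Rn18s and Phgdh have the widest bars.

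The RU486 groups at 4 h give each gene's level in the presence of this receptor blocker. They were set beside the others as values only, since comparisons with vehicle share its arrays. How fully the receptor was blocked was not tested. Mean log2 intensity of Fkbp5 was 10.50 under corticosterone, 7.84 under corticosterone with RU486, 7.76 under RU486 and 7.62 under vehicle. Sgk1 averaged 13.20 under corticosterone, 11.46 under both, 11.31 under RU486 and 11.26 under vehicle. Prodh averaged 9.48 under corticosterone, 7.27 under both, 7.26 under RU486 and 7.34 under vehicle. For these 3 genes the 3 groups other than corticosterone alone lay close together. Other raised genes, such as Fam107a and Sult1a1, had both RU486 groups above vehicle. Fam107a averaged 11.99 under corticosterone, 9.20 under both, 9.30 under RU486 and 8.50 under vehicle. Sult1a1 averaged 10.94 under corticosterone, 9.24 under both, 9.56 under RU486 and 8.84 under vehicle. Per1 averaged 11.34 under corticosterone, 9.94 under both, 10.25 under RU486 and 9.14 under vehicle, with vehicle the lowest. Some lower genes also differed from the pattern of Fkbp5, Sgk1 and Prodh. Phlda1 averaged 7.96 under corticosterone, 9.72 under both, 10.04 under RU486 and 9.38 under vehicle. Lbh averaged 9.73 under corticosterone, 12.44 under both, 12.49 under RU486 and 11.24 under vehicle, so both RU486 groups stood above vehicle. Phgdh averaged 10.37 under corticosterone, 10.20 under both, 10.44 under RU486 and 8.43 under vehicle, with vehicle alone apart. Vehicle was the lowest group for Rn18s too, at 13.44 under corticosterone, 12.73 under both, 13.16 under RU486 and 10.56 under vehicle. The part of that difference in the levels of Fam107a, Sult1a1, Per1 and Lbh under RU486 was not tested.

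The calls that depended least on the processing were those made in all 20 fits of the comparison with 1 probe per gene. There were 115, of which 70 were higher and 45 lower, and they held 13 of the 16 highest and 2 of the 12 lowest genes. Further members are named here after their values were seen. The SOCS box protein gene Spsb1 had 2657.1, 3239.6 and 3246.7 under corticosterone, against 1039.5, 905.2 and 910.2 under vehicle (1.68, SE 0.11). The survival kinase gene Pim3 (1.57, SE 0.15), the actin-oxidizing enzyme gene Mical2 (1.49, SE 0.24) and the fatty acid activating enzyme gene Acsl3 (1.28, SE 0.18) were higher as well. On the lower side, Gnai2, a G protein subunit that inhibits adenylyl cyclase, had 5766.1, 6174.6 and 6384.3 under corticosterone, against 10802.3, 12612.9 and 12507.2 under vehicle (-0.97, SE 0.18). Axin2, which limits Wnt signalling and is itself a target of it, had 551.1, 613.1 and 586.4 under corticosterone, against 1069.7, 1209.5 and 1131.3 under vehicle (-0.96, SE 0.14). Sgpl1, which degrades sphingosine phosphate (-1.04, SE 0.18), and the ubiquitin ligase adaptor gene Btrc (-0.95, SE 0.16) were lower too. None of these genes had overlapping groups.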

How the data were processed

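RNA of astrocyte cultures was read as biotin-labelled cRNA on 36 Illumina bead arrays, with GenomeStudio named per the submitters' processing notes and no version given. The authors deposited normalized linear intensity values of 45281 probes. Their columns are quantile-normalized, judged from the values (sorted columns differ by at most 1.15%), with no background subtracted, so folds of dim genes are understated. Of a further deposited table only probe names and symbols were read, since its 72 numbered per-sample columns match no label; detection p-values and chips were thus not used. Values were taken to log2. A probe was kept where 3 or more arrays had it brighter than the array's median (28397), and the brightest probe stood for each of 18935 genes. RefSeq (GRCm38.p6) updated 3040 names, 11396 were current and 4499 kept the file's name. The limma 3.58.1 model (lmFit, eBayes, R 4.3.3) had 12 group means and 34 arrays, those with a median correlation of at least 0.9; it was tested on simulated data. Named genes are the 16 highest and 12 lowest called genes without overlap, up to 4 each way between times, and members of 26 gene lists (459 of 514 genes measured); predicted genes and clones are not named, but for 1 given as an exception. The members and lists were chosen with earlier results of these data known. Plots were drawn with matplotlib 3.10.9. The number of arrays limits the precision. Alternatives covered the arrays fitted, filter, probes, normexp offsets of 16 and 50, centring, cyclic loess, prior, replicate block, each array left out and an added Rn18s covariate. Some members of the lists count in the totals but are not reported here by name.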

Additional observations from a re-analysis of the deposited data

Results flagged for a closer look

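In 4 named genes the effect of corticosterone differed between times by a test of the difference itself, limma's contrast of the effect at 4 h minus that at 2 h. For Prodh the difference was 1.60 on the log2 scale (SE 0.29, adjusted p = 0.0232), and it was called in 3 of the 12 fits that left out 1 array of the 4 groups. Its difference ranged from 1.31 to 1.84 over all alternatives with 1 probe per gene. For Mapk4 it was 1.08 (SE 0.16, adjusted p = 0.00253), for the gene listed as Tilz3c 0.996 (SE 0.12, adjusted p = 0.000115) and for Slc25a33 0.79 (SE 0.12, adjusted p = 0.00393). These 3 were called in 12 of 12 such fits, and none of the 4 genes was called in the fit of only the 4 groups compared. Whether Tilz3c is a gene separate from Tsc22d3 was not checked. The difference for Tsc22d3 was 0.60 (SE 0.23, limma adjusted p = 0.593).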

How the results depend on the processing

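The count of 1672 genes called at 4 h was 157 with all 36 arrays, 2853 with the 6 arrays of the comparison alone, 3549 with the 12 arrays of 4 h, 7201 with all arrays and array weights, and 457 with the Rn18s covariate, which was chosen after seeing the data. It was 671 to 1491 with 1 of the 6 arrays left out, and 1415 to 2384 under the other alternatives. The 5 genes called between 4 h and 2 h became 1 with all arrays, 0 with the 4 groups alone, 68 with array weights, 8 with all probes tested separately, and 4 to 50 with 1 array left out; the 50 (19 higher and 31 lower, where the 5 were all higher) came without vehicle 2 h replicate 3. Higher calls at 4 h were the fewer with 34 arrays (36.5%) and the more with all 36 arrays (54.8%) and the covariate (53.2%). The count between 6 h and 4 h was 0 except with array weights (1040), and 0 to 0 with 1 array left out. The causes were not tested. None of the 28 highest and lowest genes changed direction, and 13 of them lost the call in 1 or more settings. Whether the replicate numbers pair the arrays is not known. Same-numbered corticosterone and vehicle deviations correlated at -0.03, 0.09 and -0.03, and differently numbered ones at -0.10 to 0.08. With 3 arrays per group these values cannot decide it. With a replicate block 2384 genes were called at 4 h (39.4% higher), 6 between 4 h and 2 h and 0 between 6 h and 4 h. Cyclic loess gave 1697 calls, 44.0% higher. Probes near the array median carry unsubtracted background, which limits what can be read from their folds.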
